A study of Mus musculus with 4 samples.

Results

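The genes described here are 52 non-Hox homeobox and paired box regulators of mouse development, from the Dlx, Msx, Pax, Lhx, Irx, Nkx, Otx, Pitx, Prrx, Alx, Shox, Meis, Barx and Evx families and the sine oculis genes Six2, Six3, Six4 and Six6. The rule names genes and uses no measured value, although the list was drawn up with earlier results of these data known. The background was the 21121 genes with a promoter level in at least 1 library. All 52 are protein coding. They gave 224 gene regions with a level in at least 1 library (promoters, 5′ UTRs, exons, introns and 3′ UTRs, each class read as 1 value per gene) and overlapped 111 of the 14359 CpG islands listed.

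The study asked what DNMT1, the enzyme that copies CpG methylation onto newly made DNA, does to methylation in C3H10T1/2 cells before and during early osteoblast (OB) differentiation. C3H10T1/2 is a mouse embryo cell line with the properties of mesenchymal stem cells. All cells were transfected with an siRNA for 48 h. The control group received the control siRNA and the siDNMT1 group the DNMT1 siRNA, both without induction. The OB group received the control siRNA and then 3 days of a medium with L-ascorbic acid, β-glycerophosphate and dexamethasone, and the siDNMT1 OB group received the DNMT1 siRNA and the same medium. Each group was 1 bisulfite library, so no difference below has a check by replicates of a condition, and no p-value is given. The knockdown of DNMT1 cannot be read from methylation levels and was not checked here.

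Homeobox genes encode transcription factors that bind DNA through a homeodomain and set the identity of body regions and organs. Pax genes add a paired domain, Lhx genes a pair of LIM domains, and Pax1 and Pax9 have the paired domain without a homeodomain. In mesenchyme, Prrx1, Prrx2, Msx1, Dlx, Alx and Shox2 genes pattern limb and face, whereas Pax6, Otx2, Lhx2 and Nkx2-1 are best known for eye, brain, lung and thyroid. The regulatory regions of such genes are typically rich in CpG dinucleotides. DNA methylation occurs at the cytosine of CpG, and a level is the fraction of methylated CpG cytosines in a region, from 0 to 1. A promoter level does not measure expression.

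The sequences below come from the GRCm38 genome, the assembly of mm10, and show the CpG content at the starts of 3 genes of the Irx (Iroquois) family of homeodomain factors and within a coding island. Each is read 5′ to 3′ on the strand of its gene, and capitals mark CpG. The first 3 are the 250 bases before the gene start of Irx5 (chr8:92357375-92357624, + strand, 23 CpG), whose promoter was almost unmethylated, of Irx1 (chr13:71963724-71963973, − strand, 23 CpG), whose promoter level was lower after induction, and of Irx3 (chr8:91802068-91802317, − strand, 19 CpG), whose promoter level was higher after induction. The last is the middle 300 bases of the island in the coding sequence of Irx1 (chr13:71959656-71959955, − strand, 29 CpG), where the level was also lower after induction. The 3 stretches before the start overlap no exon of the GENCODE or RefSeq annotation used here. Those of Irx1 and Irx5 lie inside start islands that were under 0.03 in every library, so the Irx1 stretch is not where its promoter level differed, and the rest of the 2 kb is not printed.
Irx5, before the start: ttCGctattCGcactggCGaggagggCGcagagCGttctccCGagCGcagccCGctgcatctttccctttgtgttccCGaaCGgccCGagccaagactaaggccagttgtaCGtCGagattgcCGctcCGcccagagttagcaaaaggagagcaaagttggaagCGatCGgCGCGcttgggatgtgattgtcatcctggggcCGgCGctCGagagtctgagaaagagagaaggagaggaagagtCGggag
Irx1, before the start: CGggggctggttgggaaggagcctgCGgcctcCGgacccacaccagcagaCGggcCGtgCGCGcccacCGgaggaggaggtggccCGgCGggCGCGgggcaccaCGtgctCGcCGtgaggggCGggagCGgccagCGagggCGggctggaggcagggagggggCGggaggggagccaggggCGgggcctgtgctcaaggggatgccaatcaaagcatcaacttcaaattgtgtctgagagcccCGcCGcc
Irx3, before the start: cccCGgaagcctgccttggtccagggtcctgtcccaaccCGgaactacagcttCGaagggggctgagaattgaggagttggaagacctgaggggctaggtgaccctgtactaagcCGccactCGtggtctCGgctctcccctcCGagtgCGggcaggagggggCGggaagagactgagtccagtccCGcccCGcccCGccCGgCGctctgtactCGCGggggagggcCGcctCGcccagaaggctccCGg
Irx1, coding island: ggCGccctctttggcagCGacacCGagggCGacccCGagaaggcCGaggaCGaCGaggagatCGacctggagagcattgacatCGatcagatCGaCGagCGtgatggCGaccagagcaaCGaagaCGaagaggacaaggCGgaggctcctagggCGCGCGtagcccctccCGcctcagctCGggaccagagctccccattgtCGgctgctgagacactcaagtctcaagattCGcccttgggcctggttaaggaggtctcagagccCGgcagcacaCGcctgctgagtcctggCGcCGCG

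A promoter level was present in all 4 libraries for 49 of the 52 genes and in no library for Pax4, Pax8 and Nkx2-5. The 2 kb before the gene start held 28, 16 and 29 CpG dinucleotides in these 3 genes, against a median of 57 over the 52 genes and 37 over 21083 promoters listed. Levels in all 4 libraries were present for 45 of the 5′ UTRs, 51 of the exon entries, 51 of the intron entries, 27 of the 3′ UTRs and 108 of the 111 islands. Pax4 had no level in any class. The annotation that set the promoter entries is not given in the sources used here. GENCODE and RefSeq place the gene start over 500 bp apart for 14 of the 52 genes (Pax2, Irx2, Evx2, Meis1, Meis2, Prrx1, Prrx2, Nkx2-2, Irx4, Lhx6, Six4, Alx1, Otx1 and Otx2), so which bases their promoter levels cover, and which of their islands count as start islands, is uncertain. The files give no read depth, so no interval can be put on a single level, and a level of 0 or 1 in a small island may rest on few reads. Region classes can share cytosines. The 5′ UTR and exon entries of Alx1, for example, had the same level in every library (0.425, 0.416, 0.376 and 0.361), so classes of 1 gene are not independent readings. Promoters of the fixed marker genes did not tell mesenchymal from other cell types: in the control library the median was 0.394 for 7 of 10 mesenchymal markers, 0.392 for 3 of 5 epithelial, 0.405 for 4 of 5 haematopoietic and 0.330 for 4 of 5 neural ones.

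The homeobox promoters were mostly at intermediate methylation. The median over the 49 promoters was 0.354 in control, 0.365 in siDNMT1, 0.343 in OB and 0.333 in siDNMT1 OB, against 0.191, 0.188, 0.174 and 0.164 over all 20152 promoters with a level in every library. A mean level between 0.1 and 0.7 was found for 39 of the 49 (79.6%) and for 48.2% of all promoters, and a mean under 0.05 for 7 of the 49 (14.3%) and for 34.5% of all. The distance from the rest was widest in CpG islands. The 108 islands had a median of 0.370 in control, 0.371 in siDNMT1, 0.317 in OB and 0.316 in siDNMT1 OB, whereas the 14095 islands of the genome were at 0.0323, 0.0330, 0.0285 and 0.0277. Only 16 of the 108 (14.8%) had a mean under 0.05, against 56.0% of all islands. The sets were not matched for position. The 108 overlap a gene, 83 of them away from its start, while the background holds listed islands at any position.

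**Figure D1:**
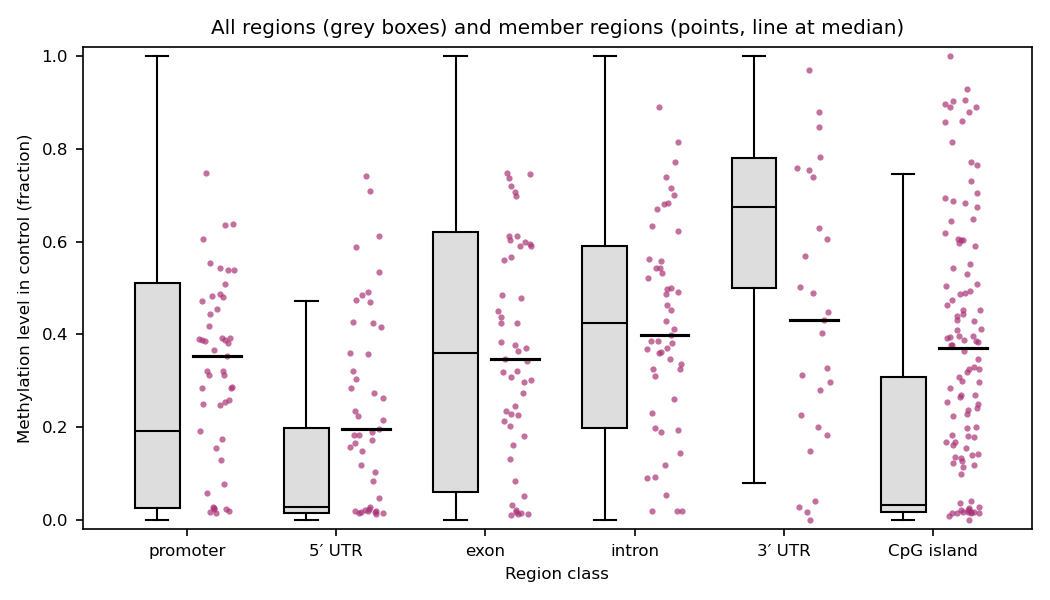
Methylation level in the control library (vertical axis, fraction from 0 to 1) by region class, with all regions as grey boxes (median, quartiles and whiskers, outliers not drawn) and the homeobox genes' regions as points with a line at their median. The homeobox median lies above that of all regions for promoters (0.354 against 0.191), 5′ UTRs (0.196 against 0.0286) and islands (0.370 against 0.0323), and below it for 3′ UTRs (0.430 against 0.675).

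The order of the classes was also flatter than in other genes. In control, the medians over the homeobox genes were 0.196 for 5′ UTRs, 0.346 for exons, 0.398 for introns and 0.430 for 3′ UTRs, and over all genes 0.0286, 0.361, 0.424 and 0.675. Exons and introns thus lay near the background, 5′ UTRs above it and 3′ UTRs below it. A pair of related lists looked like the 52 genes in their promoters. The median in control was 0.322 over 54 of 66 other non-Hox homeobox or paired box genes and 0.324 over 34 of 39 Hox genes, so the intermediate level was not particular to the genes described here.

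At the low end stood Irx5, Irx2, Meis2, Meis1, Six2, Six4 and Prrx2. The Irx5 promoter had a level of 0.0141 in control, 0.0141 in siDNMT1, 0.0135 in OB and 0.0120 in siDNMT1 OB. Irx2 was at 0.0170, 0.0151, 0.0136 and 0.0146 in the same order of libraries. Meis1 and Meis2, partners of Hox and Pbx proteins on DNA, lay between 0.0192 and 0.0249 in every library. Six2, which keeps kidney progenitors undifferentiated, lay between 0.0270 and 0.0305, and Six4 between 0.0253 and 0.0357. Prrx2, a factor of limb and face mesenchyme, was at 0.0189, 0.0404, 0.0238 and 0.0419, and both siDNMT1 libraries were above both control-siRNA libraries at this gene. Dlx2 (mean 0.0508) and Lhx5 (mean 0.0737) followed, and no other promoter had a mean under 0.1.

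At the high end stood Nkx6-2, Pax6, Lhx2, Pax9 and Lhx9. The promoter of Nkx6-2, a factor of spinal cord and glial identity, had a level of 0.749 in control, 0.756 in siDNMT1, 0.702 in OB and 0.690 in siDNMT1 OB. Pax6, the eye and brain regulator, was at 0.635, 0.628, 0.640 and 0.605. Lhx2, which acts in forebrain and eye, was at 0.638, 0.627, 0.627 and 0.582. Pax9, needed for teeth and for organs of the pharyngeal pouches, was at 0.607, 0.530, 0.526 and 0.456. Lhx9, a factor of limb, gonad and brain, was at 0.538, 0.557, 0.505 and 0.505. The distance between the highest and the lowest of the 49 promoters was larger than that between the libraries at any of them.

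**Figure D2:**
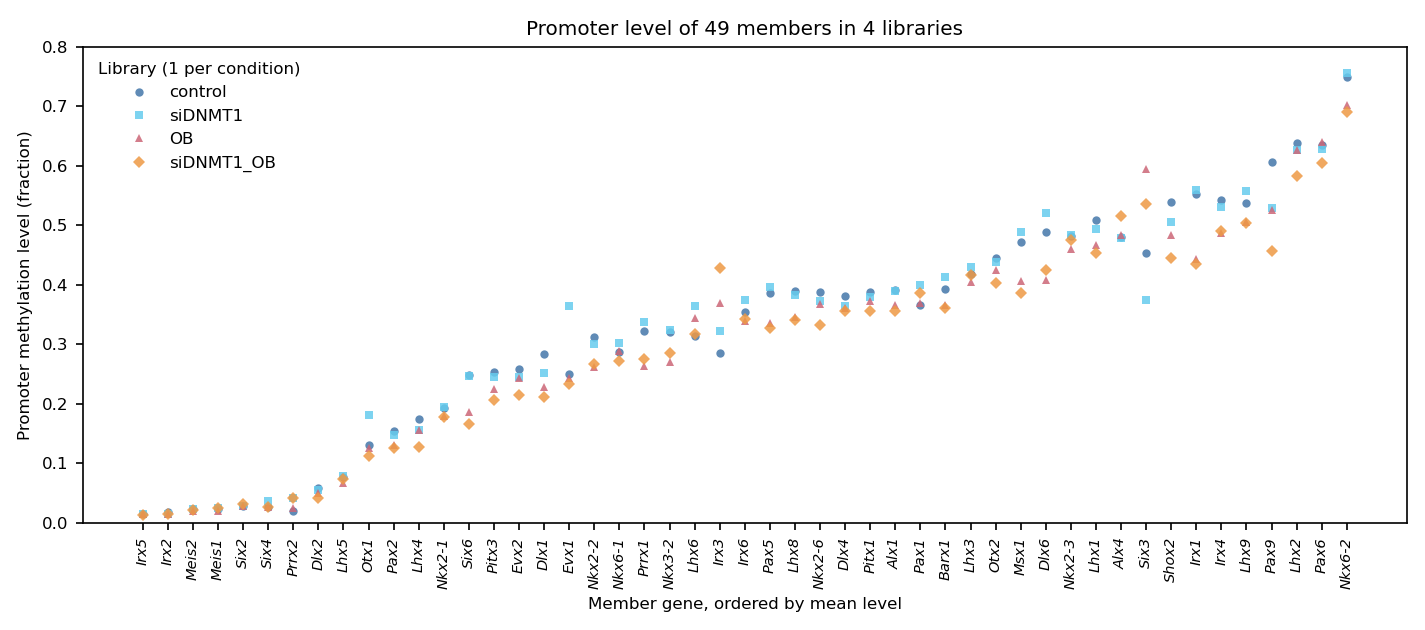
Promoter methylation level (vertical axis, fraction) of the 49 homeobox genes with a level in all 4 libraries, ordered by mean level, with 1 point per library (control, siDNMT1, OB and siDNMT1_OB, the DNMT1 siRNA with induction). Means run from 0.0134 in Irx5 to 0.724 in Nkx6-2, and the 4 points of most genes lie close together, with Six3, Irx3, Evx1, Irx1 and Pax9 spread the most.

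Families were not uniform. Among the Dlx genes, factors of face, limb and forebrain, the mean promoter level ran from 0.0508 in Dlx2 to 0.460 in Dlx6. The Pax family ran from 0.139 in Pax2 to 0.627 in Pax6, the Lhx family from 0.0737 in Lhx5 to 0.619 in Lhx2, and the Nkx family from 0.186 in Nkx2-1 to 0.724 in Nkx6-2. Otx1 (0.137) and Otx2 (0.428) bounded the Otx and Pitx genes, and Prrx2 (0.0313) and Shox2 (0.493) bounded the Prrx, Alx and Shox genes. Evx2 (0.240) and Evx1 (0.272) lay close together. The Meis genes were the one family with more than 1 member in which every promoter was under 0.05. Msx1 (0.439) and Barx1 (0.383) were each the sole gene of their family here.

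The Irx genes lie in a pair of clusters that arose by duplication, with Irx1, Irx2 and Irx4 on chromosome 13 and Irx3, Irx5 and Irx6 on chromosome 8. In both clusters the middle gene was the one with an unmethylated promoter entry. On chromosome 13 the mean promoter level was 0.498 for Irx1, 0.0151 for Irx2 and 0.513 for Irx4. On chromosome 8 it was 0.351 for Irx3, 0.0134 for Irx5 and 0.353 for Irx6. Other entries did not follow this split. The start island of Irx1 (mean 0.0177) and the 5′ UTRs of Irx1 (0.0146) and Irx3 (0.0193) were also low. Irx2 and Irx4 are among the genes of uncertain start. Irx2 and Irx5 are each other's paralogs. Their start islands were long, 3674 bp with 297 CpG in Irx2 (chr13:72628318-72631991) and 5129 bp with 421 CpG in Irx5 (chr8:92355698-92360826). The island level was 0.0160, 0.0148, 0.0132 and 0.0136 in Irx2 and 0.0145, 0.0150, 0.0146 and 0.0151 in Irx5, in the order control, siDNMT1, OB and siDNMT1 OB.

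The sine oculis genes showed a similar split along their clusters. Six6 and Six4 lie on chromosome 12 and Six3 and Six2 on chromosome 17. Six3 and Six6, the paralogs that act in forebrain and eye, had mean promoter levels of 0.490 and 0.212, whereas Six2 and Six4 were at 0.0283 and 0.0284. The adjacent Dlx1 and Dlx2 on chromosome 2 had mean promoter levels of 0.244 and 0.0508. The islands of both were nevertheless low, at 0.0202, 0.0226, 0.0188 and 0.0182 in Dlx1 (chr2:71528909-71529726) and at 0.0171, 0.0173, 0.0140 and 0.0141 in Dlx2 (chr2:71544135-71546923).

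The islands showed that a methylated 2 kb promoter could stand beside an unmethylated start. Of the 50 genes with an island level in all 4 libraries, 13 had an island with a mean under 0.05. These were Prrx2, Six2, Prrx1, Irx2, Irx5, Dlx2, Meis2, Six4, Irx1, Dlx1, Meis1, Msx1 and Pax9, with their lowest island between 0.0127 and 0.0295. Not all show a methylated promoter beside such a start. The promoters of Prrx2, Six2, Irx2, Irx5, Meis2, Six4 and Meis1 were themselves under 0.05 on average, and that of Dlx2 was at 0.0508. In Prrx2, Prrx1, Six4, Dlx1 and Pax9 the lowest island did not overlap the GENCODE start. The next gene, Irx4, had its lowest island at a mean of 0.0713. In Irx1 the promoter had a mean of 0.498, while the island at the start (chr13:71962780-71964032, 1253 bp, 140 CpG) was at 0.0156, 0.0205, 0.0167 and 0.0182. In Msx1, a limb and tooth factor, the promoter had a mean of 0.439, while the start island (chr5:37823707-37824807, 99 CpG) was at 0.0220, 0.0349, 0.0305 and 0.0257 and the 5′ UTR at 0.0140, 0.0313, 0.0361 and 0.0171.

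Prrx1, which marks limb bud mesenchyme, also had a methylated promoter and a low island, but no level was read at its start. The island centre lay 1399 bp inside the gene from the GENCODE start, and the RefSeq start lies further upstream. Its promoter was at 0.322, 0.337, 0.263 and 0.274, its island (chr1:163312002-163312621) at 0.0140, 0.0177, 0.0132 and 0.0122, and its exons at 0.0112, 0.0351, 0 and 0.0303. The uncertain start named above applies to it. In Pax9 the island at the start (chr12:56691495-56691803) was at 0.475, 0.573, 0.516 and 0.524, and a second island within the gene (chr12:56696495-56697281) was at 0.0371, 0.0314, 0.0290 and 0.0204. The promoter exceeded the gene body, taken as the mean of exons and introns, by 0.297 in Msx1, 0.249 in Prrx1 and 0.216 in Six3. In the opposite direction, the promoter minus body difference was -0.450 in Nkx3-2, a factor of axial skeleton and spleen, -0.416 in Otx1, -0.395 in Lhx6 and -0.280 in Prrx2, of which the last 3 are among the genes of uncertain start. The median of this difference was -0.0441 over the 49 genes and -0.0925 over 13000 genes.

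By position, 25 islands lay at the gene start and 83 elsewhere in 42 of the genes. The start islands had a median of 0.237 in control, and 8 of the 25 had a mean under 0.05. The islands elsewhere had a median of 0.394, with 8 under 0.05 and 11 of at least 0.75. Pax6 had 7 islands, the most of any of the genes, 6 of them with a level in all libraries and with means from 0.289 to 0.899. Otx1 had one island at 0.115 and another at 0.895, and Lhx6 ranged from 0.125 to 0.890. In 9 of the 33 genes with several islands the means differed by more than 0.5 within the gene.

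**Figure D3:**
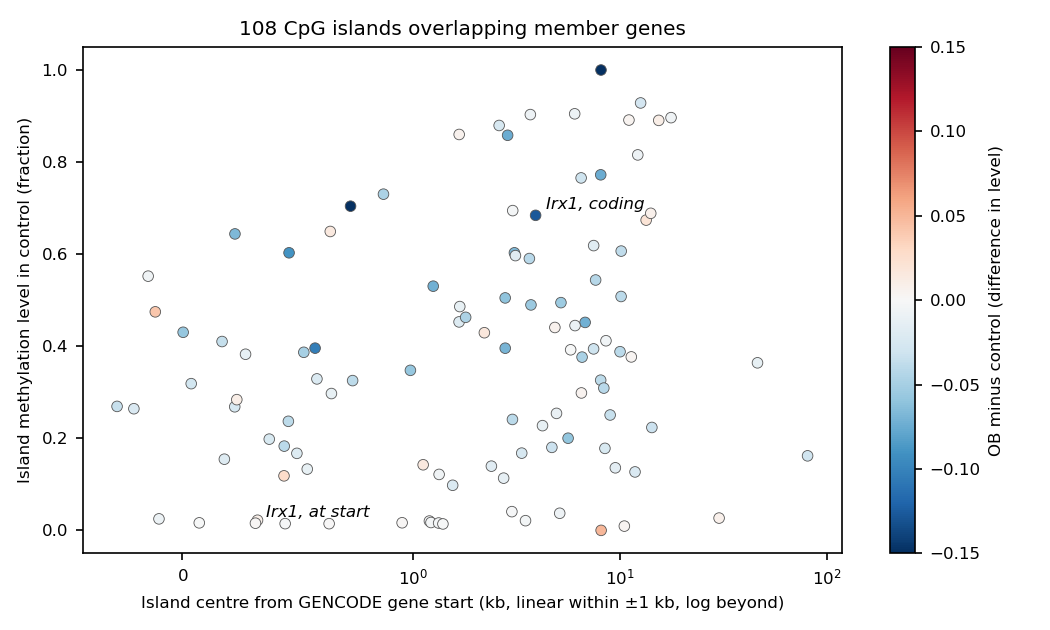
Methylation level in control (vertical axis, fraction) of the 108 islands of the homeobox genes against the distance of the island centre from the GENCODE gene start (horizontal axis, kb, linear within 1 kb of the start and logarithmic beyond). Colour gives OB minus control, blue where OB was lower, and the 2 islands of Irx1 stand at 0.0156 (at the start) and 0.684 (in the coding sequence), the second with a difference of -0.127.

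With DNMT1 siRNA, most promoter levels of these genes were near those with the control siRNA. Without induction, the median difference between siDNMT1 and control over the 49 promoters was -8.76e-05, with 25 lower and 24 higher. Over all promoters the median was -0.000713. The promoter of Evx1 was the only one of the 49 that differed by at least 0.1, upwards, and none was lower by 0.1. Of all promoters, 0.670% were higher by at least 0.1 and 0.814% lower, so that 1 of 49 is near the background. After induction, the median difference between siDNMT1 OB and OB was -0.00554, with 31 lower and 18 higher, against -0.00371 over all promoters. No promoter of the 49 reached 0.1 in either direction, where 1.41% of all promoters were lower by that much and 0.794% higher. Subtracting from each library its median promoter level turned both medians positive, to 0.000918 and 0.00737. The same step turned those over all promoters positive, to 0.000292 and 0.00920, so the turn was not particular to these genes.

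Pax9 and Six3 had the lowest values with DNMT1 siRNA in both settings. The difference at the Pax9 promoter was -0.0769 without induction and -0.0694 with it, and at Six3 it was -0.0804 and -0.0597. At Irx3 it was 0.0371 and 0.0592. Evx1, a homeobox gene at the end of the HoxA cluster, was at 0.250 in control, 0.364 in siDNMT1, 0.243 in OB and 0.234 in siDNMT1 OB, so the siDNMT1 library stood alone. The 2 kb before the Evx1 start hold 29 CpG, fewer than the median of 57. Of the 49 promoters, 20 (40.8%) were lower with DNMT1 siRNA in both settings, 13 higher in both and 16 opposite, against 36.6% of all promoters lower in both. Across the 49 genes the 2 differences, which share no library, had a Pearson r of 0.515 and a Spearman rho of 0.509, and of 0.560 and 0.505 without Evx1 and Six3. Over all promoters r was 0.0714. The sets are not matched for level, since 8456 of all 20152 promoters had a mean under 0.1 against 9 of the 49. No r over promoters of like level was computed. The 49 genes are not independent replicates.

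**Figure D4:**
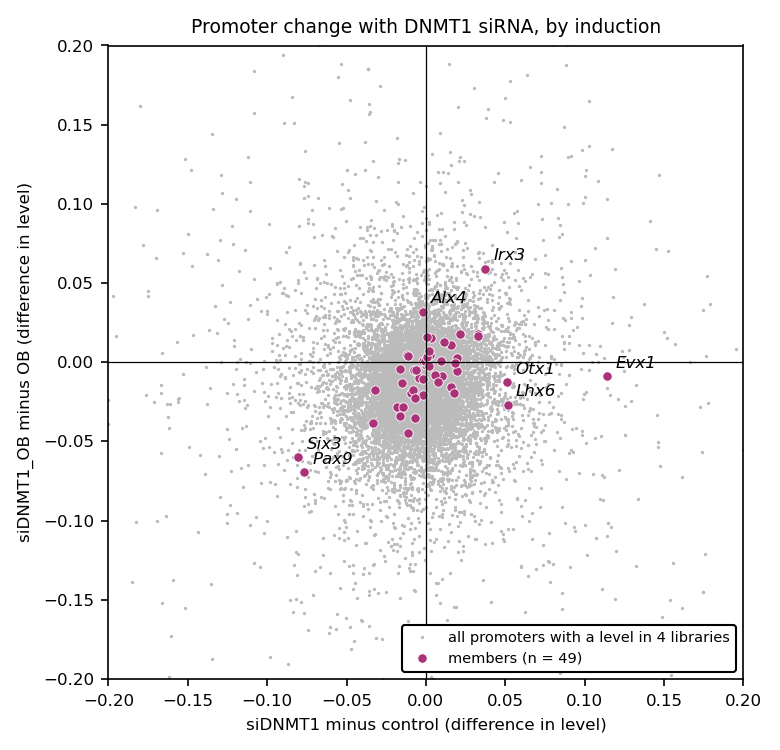
Difference in promoter level between siDNMT1 and control (horizontal axis) and between siDNMT1_OB and OB (vertical axis) for the 49 homeobox promoters (purple) over all promoters (grey), both axes in fraction and shown from −0.2 to 0.2 with promoters beyond that not drawn. The homeobox promoters lie around 0 on both axes, with Evx1 to the right (0.114), Irx3 above (0.0592), and Six3 and Pax9 at the lower left.

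For islands, the shares of all are not matched for level, and 8690 of all 14095 had a mean under 0.1 against 19 of the 108. Without induction, 59 of the 108 were lower with DNMT1 siRNA and 48 higher (median -0.00112), against 46.2% lower and a median of 0.000474 over all. With induction, 73 were lower and 35 higher (median -0.00781), against 58.5% lower and a median of -0.00111 over all. There, at a mean of 0.1 to 0.3, the medians were -0.0144 for homeobox islands and -0.00775 for all. From 0.3 to 0.5, they were -0.00781 and -0.00775, and from 0.5 to 0.75, 0.00192 and -0.0115. Among islands, the level differed by at least 0.1 between siDNMT1 and control in 1 of 108, and it was lower. Of all islands, 0.255% were lower and 0.227% higher by that much. That island lies within Irx5 (chr8:92365567-92365890, 25 CpG) and was at 1 in control, 0.8 in siDNMT1, 0.667 in OB and 0.722 in siDNMT1 OB, so control stood above the other libraries. A further Evx1 island (chr6:52314581-52314803) was at 0.111 in control, 0.250 in siDNMT1 and 0.2 in OB, and it had no level in siDNMT1 OB. Between siDNMT1 OB and OB, 2 of 108 islands were higher by at least 0.1 and none lower, where 0.326% of all islands were higher and 0.355% lower. One was in Irx4 (chr13:73268477-73268710, 18 CpG), at 0 in control, 0 in siDNMT1, 0.05 in OB and 0.235 in siDNMT1 OB. The other was in Evx1 (chr6:52316548-52317165, 77 CpG), at 0.168, 0.166, 0.143 and 0.308. In both, the siDNMT1 OB library stood alone above the other libraries. Read depth is unknown, so the levels of these Irx5, Irx4 and Evx1 islands may rest on few reads. No 5′ UTR, exon, intron or 3′ UTR entry of the 52 genes differed by 0.1 with DNMT1 siRNA in either setting. Without induction, lower and higher by that much were 74 and 87 of all 11491 5′ UTRs and 187 and 147 of 20401 exons. For 19757 introns the counts were 154 and 110, and for 4354 3′ UTRs 70 and 48. With induction, the counts in the same order were 136 and 69, 312 and 158, 258 and 112, and 106 and 53. So few regions passed this size in any class.

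OB induction went with lower levels at most of the homeobox promoters, by small amounts. Between OB and control, 41 of 49 were lower and 8 higher, with a median difference of -0.0182, against 63.4% lower and a median of -0.00320 over all promoters. Between siDNMT1 OB and siDNMT1, 44 of 49 were lower and 5 higher, with a median of -0.0342, against 73.1% lower and a median of -0.00654 over all. The 2 differences share no library with each other, although each shares its libraries with the DNMT1 comparisons above. Lower in both were 40 of 49 (81.6%) of the homeobox promoters and 50.4% of all promoters. Across the 49 genes the Pearson r of the 2 differences was 0.840 and the Spearman rho 0.726, and 0.665 and 0.690 without Six3 and Irx3. Over all promoters, which are not matched for level, r was 0.314.

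This direction is the one seen on the scale as deposited. The median promoter level of the whole library was itself lower after induction, by a difference of -0.0169 between OB and control and of -0.0288 between siDNMT1 OB and siDNMT1. After each library was centred on its own median, 25 and 28 of the 49 promoters were lower, with medians of -0.00132 and -0.00539, against 25.1% and 23.0% of all promoters. These centred shares cannot be compared directly, since centring adds the same amount to every difference, promoters near 0 then come out higher, and 8456 of the 20152 promoters had a mean under 0.1 against 9 of the 49. How many of the 49 were lower depends on the scale.

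The size of these differences was next compared with promoters of the same level class, all of them and the CpG-rich ones, on the deposited scale. The cut for CpG-rich, 57 CpG in 2 kb, was the median of the homeobox promoters. These were not themselves selected by it, so CpG content was not matched. Among promoters with a mean level of 0.3 to 0.5, the median difference between OB and control was -0.0215 over 21 homeobox promoters, -0.0105 over all 3156 and -0.0225 over the 530 with at least 57 CpG in 2 kb. Between siDNMT1 OB and siDNMT1 it was -0.0353, -0.0201 and -0.0335. Lower in OB were 16 of the 21 and 394 of the 530. In this class the homeobox promoters and the CpG-rich promoters had nearly the same medians. From 0.1 to 0.3, the medians over 13 homeobox promoters were -0.0236 and -0.0384, against -0.0179 and -0.0238 over 966 CpG-rich ones. From 0.5 to 0.75, those over 6 homeobox promoters were -0.0398 and -0.0485, against -0.0145 and -0.0269 over 340, so that the homeobox medians were the lower ones in both of these classes. Under 0.1, they were -0.00285 and -0.00166 over 9 homeobox promoters and -0.00182 and -0.00261 over 3303 CpG-rich ones. The other homeobox genes of the fixed list gave medians of -0.0158 and -0.0288, and the Hox genes -0.0242 and -0.0312. The skeletal transcription factors, 9 of 11 with a level, gave -0.00613 and -0.0133.

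**Figure D5:**
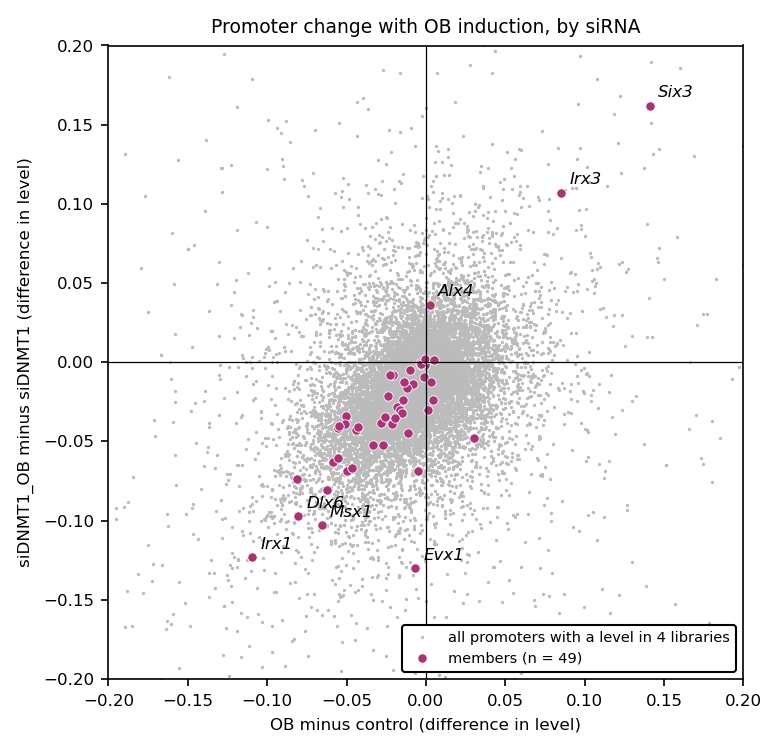
Difference in promoter level between OB and control (horizontal axis) and between siDNMT1_OB and siDNMT1 (vertical axis) for the 49 homeobox promoters (purple) over all promoters (grey), in fraction, on the scale as deposited and shown from −0.2 to 0.2 with promoters beyond that not drawn. Of the 49, 40 lie below 0 on both axes, with Irx1 the lowest on the horizontal axis (-0.110), and Six3 (0.141 and 0.162) and Irx3 (0.0851 and 0.107) stand at the upper right.

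By family, every Dlx promoter (4 of 4), Otx or Pitx promoter (4 of 4), Meis promoter (2 of 2) and Evx promoter (2 of 2) was lower after induction in both siRNA settings on the deposited scale. After centring, this was so of 3 and 2 Dlx promoters, 2 and 3 Otx or Pitx promoters, 0 and 0 Meis promoters, and 0 and 2 Evx promoters. For Lhx it was 7 and 8 of 8 as deposited and 4 and 5 after centring, for Nkx 6 and 7 of 7 and then 5 and 5, and for Irx 5 and 5 of 6 and then 2 and 3. Pax gave 3 and 5 of 5 and then 3 and 2, the sine oculis genes 3 and 2 of 4 and then 1 and 1, and Prrx, Alx and Shox 3 and 3 of 5 on both scales. Msx1 and Barx1 were lower in both settings on both scales. Centring removes shifts of -0.0169 and -0.0288, and a promoter that starts below the size of the shift cannot come out lower. This held for Irx5 in both settings. With DNMT1 siRNA it also held for Irx2, Six2, Meis1 and Meis2. Those centred outcomes were fixed in advance and say nothing about these genes.

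Differences of at least 0.1 after induction were few, and the promoters of Irx1 and Six3 had one in both siRNA settings. Between OB and control, 1 of 49 promoters was lower by that much (Irx1) and 1 higher (Six3), where 1.41% of all promoters were lower and 0.764% higher. Between siDNMT1 OB and siDNMT1, 3 were lower (Irx1, Evx1 and Msx1) and 2 higher (Six3 and Irx3), where 2.34% of all were lower and 1.04% higher.

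Irx1 differed in its promoter and its coding sequence. Its promoter was at 0.553 in control, 0.559 in siDNMT1, 0.444 in OB and 0.436 in siDNMT1 OB, and both induced libraries were below both uninduced ones. The exons were at 0.595, 0.598, 0.480 and 0.492. Among all exon entries, 2.18% differed by at least 0.1 either way between OB and control and 3.63% between siDNMT1 OB and siDNMT1, and Irx1 was the only one of the 51 homeobox exon entries to do so, in both. The island in its coding sequence (chr13:71959355-71960256, 902 bp, 77 CpG, part of which is printed above) was at 0.684, 0.677, 0.557 and 0.559. The start island stayed under 0.03 in every library, and the 5′ UTR was at 0.0140, 0.0152, 0.0179 and 0.0114. The intron was at 0.189, 0.198, 0.180 and 0.180 and the 3′ UTR at 0.971, 0.958, 0.961 and 0.944. None of these 4 regions differed by 0.1. After centring, the promoter difference was -0.0926 and -0.0943.

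Six3 went the other way. Its promoter was at 0.454 in control, 0.374 in siDNMT1, 0.595 in OB and 0.536 in siDNMT1 OB, and both induced libraries were above both uninduced ones. Its 5′ UTR was at 0.236, 0.236, 0.253 and 0.231, and its exons were at 0.346, 0.337, 0.309 and 0.317. Of its 4 islands, the first 3 after the start were lower in both induced libraries, for example 0.326, 0.314, 0.287 and 0.274 in the island at chr17:85621296-85622067. The higher level was thus seen in the promoter and not in these islands. The Irx3 promoter was at 0.285, 0.322, 0.370 and 0.429, again with both induced libraries on top, while its 5′ UTR was at 0.0184, 0.0206, 0.0219 and 0.0162 and its start island (chr8:91799686-91802202) at 0.142, 0.184, 0.157 and 0.149. After centring, the differences of Six3 (0.158 and 0.191) and the second difference of Irx3 (0.136) were larger. Alx4, a limb and skull factor, was higher after induction in both settings by smaller amounts, 0.00247 and 0.0364.

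Msx1 was at 0.472, 0.489, 0.406 and 0.387, with both induced libraries below both uninduced ones, and its second difference was -0.103 as deposited and -0.0740 after centring. Dlx6, which acts in the jaw, was at 0.488, 0.521, 0.408 and 0.424. In Pax9 the promoter differences after induction were -0.0809 and -0.0734, while the exons were at 0.450, 0.462, 0.512 and 0.510. The difference at Evx1 between siDNMT1 OB and siDNMT1, -0.130, rests on the siDNMT1 library alone, since OB and control differed by -0.00693.

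The shares of all islands below are not matched for level. An island under 0.1 before induction cannot be lower by 0.1. A mean under 0.1 was found for 8690 of all 14095 islands and for 19 of the 108. Among islands, 4 of 108 were lower by at least 0.1 in OB than in control and none higher, where 0.858% of all islands were lower and 0.319% higher. They were the islands of Irx1 and Irx5 described above, 1 in Pax6 (chr2:105669481-105669780), at 0.704, 0.656, 0.494 and 0.589, and 1 in Pitx1, a hindlimb factor (chr13:55835493-55835739), at 0.396, 0.461, 0.293 and 0.367. In Pax6 and Pitx1 the OB library was the lowest, and the siDNMT1 OB library also lay below both uninduced ones. Between siDNMT1 OB and siDNMT1, 2 islands were lower and 2 higher, where 1.00% of all islands were lower and 0.263% higher. The lower ones were the coding island of Irx1 and one in Lhx5 (chr5:120438069-120438364), at 0.299, 0.358, 0.304 and 0.221, and the higher ones were those of Irx4 and Evx1 given above. Of the 108 islands, 80 (74.1%) were lower in both settings, against 60.0% of all islands. At a mean of 0.1 to 0.3, median differences (control siRNA first) were -0.0236 and -0.0363 for homeobox islands, against -0.0229 and -0.0305 for all. From 0.3 to 0.5, they were -0.0393 and -0.0347, against -0.0320 and -0.0384. From 0.5 to 0.75, they were -0.0375 and -0.0401, against -0.0259 and -0.0341. Under 0.1, they were -0.00147 and -0.00311, against -0.00158 and -0.00250.

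Few untranslated regions passed the same size. Among 5′ UTRs, Lhx9 was higher in OB than in control (0.710, 0.761, 0.817 and 0.825 in the order used above), 1 of 45 where 2.35% of all 5′ UTRs differed by at least 0.1 either way. Between siDNMT1 OB and siDNMT1, Six6 (0.103, 0.1602, 0.0907 and 0.0507) and Lhx3 (0.588, 0.628, 0.571 and 0.502) were lower, 2 of 45 where 2.72% of all differed. Of the 3′ UTRs, that of Shox2 was lower between the same libraries (0.755, 0.739, 0.685 and 0.635), 1 of 27 where 4.71% of all differed. Both induced libraries were below both uninduced ones at Shox2, Lhx3 and Six6, and above them at Lhx9. None of the 51 intron entries differed by 0.1. Of all 19757 intron entries, 197 were lower and 155 higher by at least 0.1 between OB and control. Between siDNMT1 OB and siDNMT1, 460 were lower and 191 higher.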

How the data were processed

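Bisulfite libraries of C3H10T1/2 cells, 1 per condition, were read as deposited. Per the labels and the submitters' processing notes, base calls came from CASAVA, reads were trimmed with Trimmomatic 0.36 and aligned to mm10 with Bismark 0.16.3. The labels name reduced representation bisulfite sequencing, while the protocol describes sonicated DNA and no restriction digestion. The authors deposited the methylated fraction of CpG cytosines per region, from 0 to 1, without counts. The coverage minimum and the weighting of cytosines within a region are not given in the sources used here, and depth per library is unknown. The libraries list between 155398 and 159705 regions.

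A region entered a difference where each of the 4 libraries listed it, and 0.1 was the size counted. There were no replicates and no tests. Gene symbols, starts and strands came from GENCODE release 21 for mouse, and 21104 of 21121 promoters listed were found there. Promoters are the 2 kb before the start per the methods. RefSeq and GENCODE place the gene start within 500 bp of each other for 38 of the 52 genes. Of the 52, 40 are in the RefSeq promoter table. All 111 islands start and end with CG on GRCm38. Gene body is the mean of exon and intron entries.

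The genes named by rule were those with a region differing by at least 0.1 with DNMT1 siRNA, promoters differing by 0.1 between control and OB, the 5 highest and 5 lowest promoters, the 5 widest promoter to body gaps and the extremes of each family. Other named genes (among them Pitx1), the neighbouring genes and the genes with an island under 0.05 were chosen after their values were seen. Msx1, Dlx6 and Shox2 fall under these rules, but their values after induction were picked out once seen. The members and lists were chosen with earlier results of these data known. Alternatives covered the set of regions, centring, low levels and the threshold. The summary functions were tested on simulated data. Python 3.11.15, pandas 2.3.3, numpy 2.4.6 and matplotlib 3.10.9 were used.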

Additional observations from a re-analysis of the deposited data

Results flagged for a closer look

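In 1 of 49 promoters, 1 of 45 5′ UTRs and 4 of 108 islands of these genes, levels differed with DNMT1 siRNA in opposite directions without and with induction, by at least 0.1 between the settings. With 1 library per condition this difference was not tested. Opposite directions this far apart were found for 2.81% of all promoters, 2.59% of all 5′ UTRs and 1.03% of all islands. None was found among the exons, introns and 3′ UTRs of these genes, where the shares of all regions were 3.16%, 2.41% and 4.69%. These shares are not matched for level, and 8690 of all 14095 islands had a mean under 0.1 against 19 of the 108.

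The promoter of Evx1 gave 0.114 without induction and -0.00893 with it, which is a difference of -0.123. For an Evx1 island (chr6:52316548-52317165) the differences were -0.00196 and 0.165, so the settings were 0.167 apart. In the 5′ UTR of Lhx3 they were 0.0409 and -0.0692, with -0.110 between them. An island of Pax6 (chr2:105669481-105669780) had -0.0487 and 0.0956, which were 0.144 apart. An island of Lhx5 (chr5:120438069-120438364) had 0.0597 and -0.0834, with -0.143 between the settings. The island within Irx5 (chr8:92365567-92365890), which was at 1 in control, had -0.2 and 0.0556, which were 0.256 apart.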

How the results depend on the processing

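No paired analysis was possible because each condition is 1 library, and for the same reason no replicate could be left out. Using regions with a level in the compared libraries only changed none of the promoter medians and counts run. It left the island counts as they were in 3 comparisons and added the Evx1 island (chr6:52314581-52314803) without induction, which gave 1 lower and 1 higher of 109. It was not run for 5′ UTRs, exons, introns and 3′ UTRs. Without regions of a mean level under 0.05, the median promoter difference with DNMT1 siRNA was -0.00176 without induction and -0.00940 with it. After centring of each library on its median, these were 0.000918 and 0.00737, which turned their direction. The medians over all promoters turned in the same way, to 0.000292 and 0.00920. The centred induction medians were -0.00132 with control siRNA and -0.00539 with DNMT1 siRNA, against 0.0137 and 0.0223 over all promoters. The cause was not tested. The alternatives for induction with DNMT1 siRNA, for islands in the other comparisons and for single genes were added after the data were seen. With a threshold of 0.05 in place of 0.1, 5 of 49 promoters differed with DNMT1 siRNA without induction and 3 with it (6.27% and 9.36% of all promoters), and 10 of 108 islands with it (2.92% of all). The shares of all islands are likewise not matched for level. With a threshold of 0.2, 0 promoters differed without induction (0.313% of all) and 0 islands with it (0.149% of all). After centring, the Irx1 and Msx1 promoters no longer reached 0.1 on induction, and those of Six3, Irx3 and Evx1 did. Unknown depth limits each single level, small islands most.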
